A study of Homo sapiens with 10 samples.

Results

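The miR-30 family was followed in the human ovarian cancer line ES-2 after depletion of each of the 3 IGF2BP RNA-binding proteins. The members are 8 mature microRNAs of the deposited table, taken by name from 2576 mature microRNAs: the 5p arms hsa-miR-30a-5p, hsa-miR-30b-5p, hsa-miR-30c-5p, hsa-miR-30d-5p and hsa-miR-30e-5p, and the 3p arms hsa-miR-30a-3p, hsa-miR-30d-3p and hsa-miR-30e-3p, written below without the species prefix. All 8 were read in each of the 10 libraries and all 8 passed the filter on low values. Small RNA libraries came from cells transfected with an siRNA pool against IGF2BP1 (siIGF2BP1, 2 libraries), IGF2BP2 (siIGF2BP2, 3 libraries) or IGF2BP3 (siIGF2BP3, 3 libraries), or with control siRNA (siC, 2 libraries, called C2 and C3 after their columns). Every group is the parental ES-2 line grown in the same medium. Neither the time after transfection nor separate cultures are stated in the labels, and the p-values below therefore speak of the spread among libraries, possibly a technical one. Depletion of the IGF2BP mRNAs cannot be read from a table of mature microRNAs.

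A microRNA hairpin is cut by Drosha and Dicer into a 5p and a 3p strand, and usually one of them is loaded into an Argonaute protein while most of the other is degraded. The loaded strand finds its target mRNAs mainly through its seed. In the miR-30 family the 5p strand is the main product and all 5p members carry one seed, so they can address the same target sites. The family is known for restraining epithelial-to-mesenchymal transition, partly by repressing SNAI1, and for repressing the autophagy factor BECN1.

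The mature sequences are shown because the seed unites the family and single bases separate its members. RefSeq sequences (GRCh38.p14) were matched for 5 of the 8 members. The seed, bases 2 to 8 from the 5′ end, is in capitals.
miR-30a-5p: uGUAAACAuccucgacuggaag
miR-30e-5p: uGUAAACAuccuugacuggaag
miR-30c-5p: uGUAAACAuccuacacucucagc
miR-30a-3p: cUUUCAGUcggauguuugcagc
miR-30e-3p: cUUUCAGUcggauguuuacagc
The 3 printed 5p members share the seed GUAAACA and are themselves the 0.127% of the 2370 mature microRNAs in the RefSeq table that carry it. The arms of miR-30b and miR-30d have no entry there. Both printed 3p members share UUUCAGU. Counted from the 5′ end, miR-30e-5p differs from miR-30a-5p by 1 substitution, C13U, and miR-30e-3p differs from miR-30a-3p by G18A. Over the shared length miR-30c-5p differs from miR-30a-5p at 5 positions, all of them after the seed. Members this close can exchange reads depending on how mismatches were counted, which is not given in the sources used here.

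Both hairpins below are shown with their mature arms in capitals, since the results compare these arms.
MIR30A hairpin: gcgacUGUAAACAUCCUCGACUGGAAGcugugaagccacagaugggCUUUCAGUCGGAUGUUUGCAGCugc
MIR30E hairpin: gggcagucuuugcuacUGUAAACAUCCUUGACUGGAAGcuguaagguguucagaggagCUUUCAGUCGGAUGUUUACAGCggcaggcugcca
MIR30A lies at chr6:71403551-71403621 on the minus strand and MIR30E at chr1:40754355-40754446 on the plus strand (GRCh38.p14). In GENCODE release 29, MIR30A and MIR30C2 (chr6:71376960-71377031, minus strand) lie in introns of the long non-coding RNA gene LINC00472. MIR30E and MIR30C1 (chr1:40757284-40757372, plus strand) lie in introns of NFYC, which encodes a subunit of the transcription factor NF-Y. Hence miR-30c-5p has a copy beside miR-30a and another beside miR-30e.

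Levels are given as normalised read counts, the authors' per-library scaled reads, and mature microRNAs of 22 or 23 bases need no correction for length. Recovered totals were 462724 to 1269743 reads per library, and each member rested on at least 54 reads in every library. By their source name in the labels, the siIGF2BP2 and siIGF2BP3 samples form a set apart from siIGF2BP1 and siC. Source name and group therefore cannot be told apart in the comparisons of siIGF2BP2 or siIGF2BP3 with siC, while siIGF2BP1 against siC and siIGF2BP2 against siIGF2BP3 are comparisons within 1 source name. Among lists of other cell types, 7 blood cell microRNAs took 0.0439% to 0.0659% of the reads in siIGF2BP1, 0.0440% to 0.0640% in siIGF2BP2, 0.0557% to 0.163% in siIGF2BP3 and 0.0633% to 0.118% in siC. Fibroblast and smooth muscle microRNAs took 2.16% to 2.75% of the reads in siIGF2BP1, 2.22% to 2.29% in siIGF2BP2, 1.92% to 2.10% in siIGF2BP3 and 2.29% to 3.29% in siC, with miR-10b-5p the highest. In siIGF2BP2 and in siIGF2BP3 against siC, 4 microRNAs of these lists were called lower: miR-143-3p, the blood cell microRNAs miR-144-3p and miR-451a, and the neural miR-124-3p. Tested were 6 blood cell, 4 fibroblast and smooth muscle, and 4 muscle, liver and neural microRNAs. Of all 889 tested, 7.76% were called lower in siIGF2BP2 and 8.66% in siIGF2BP3 vs siC. The highest blood cell microRNA, miR-142-5p, was not called, with 502 to 1313 in siIGF2BP3 and 397 to 452 in siC. Its log2 fold change there was 0.76 (limma, adjusted p = 0.178), against a median of -1.39 over the blood cell list. The values of miR-143-3p were 579 to 1548 in siIGF2BP1, 9.90 to 11.5 in siIGF2BP2, 3.55 to 8.32 in siIGF2BP3 and 1089 to 1355 in siC. No microRNA of these lists was called in siIGF2BP1 vs siC. Both groups with the lower values share a source name apart from siC, so source name and knockdown cannot be told apart here. In the muscle, liver and neural list, of which miR-9-5p was the highest, the shares were 0.0227% to 0.0458% in siIGF2BP1, 0.0105% to 0.0111% in siIGF2BP2, 0.0182% to 0.0194% in siIGF2BP3 and 0.0138% to 0.0219% in siC. The part of these lists in the results below was not tested. Epithelial microRNAs were at the detection limit in ES-2: miR-429 and miR-203a had no read in any library, miR-200a-3p was at 0 in 9 of 10, and the list took at most 0.00217% of the reads.

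ES-2 cells made a miR-30 pool dominated by miR-30a-5p. Over the 10 libraries its normalised read count was 51587 ± 9001 (SD), the fifth highest of all microRNAs. Next came miR-30d-5p with 8070 ± 441, miR-30c-5p with 5865 ± 906 and miR-30e-5p with 3932 ± 706 (SD, all 10 libraries). The strand usually degraded, miR-30a-3p, followed with 3038 ± 526, and miR-30e-3p with 591 ± 89.0. At the low end were the main strand miR-30b-5p with 370 ± 34.5 and miR-30d-3p with 124 ± 24.5. Neighbours in this order kept it in every library with 2 exceptions: miR-30e-5p exceeded miR-30c-5p in siIGF2BP3 replicate 3, and miR-30a-3p exceeded miR-30e-5p in siIGF2BP2 replicate 1. Among the 8 members miR-30d-5p varied least over the libraries, with a coefficient of variation of 5.47%, against 17.4% for miR-30a-5p and 18.0% for miR-30e-5p.

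Together the 5 main strands took 5.93% and 6.53% of all microRNA reads in siIGF2BP1, 8.05%, 8.98% and 8.61% in siIGF2BP2, 6.54%, 6.49% and 7.14% in siIGF2BP3, and 7.98% and 6.93% in siC. Exact 95% binomial intervals were at most 0.159 percentage points wide and cover counting error only. Both siIGF2BP1 libraries lay below both siC libraries, and siIGF2BP3 overlapped siC and siIGF2BP1. All siIGF2BP2 libraries lay above siC, but replicate 1 exceeded siC C2 by less than the counting error, with intervals of 7.99% to 8.11% in siIGF2BP2 replicate 1 and 7.91% to 8.05% in siC C2. In means the shares were 6.23% ± 0.430 in siIGF2BP1, 8.55% ± 0.469 in siIGF2BP2, 6.72% ± 0.364 in siIGF2BP3 and 7.45% ± 0.747 in siC (SD, n = 2, 3, 3 and 2). In bulk RNA, fewer expressing cells and less RNA per cell cannot be told apart.

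**Figure D1:**
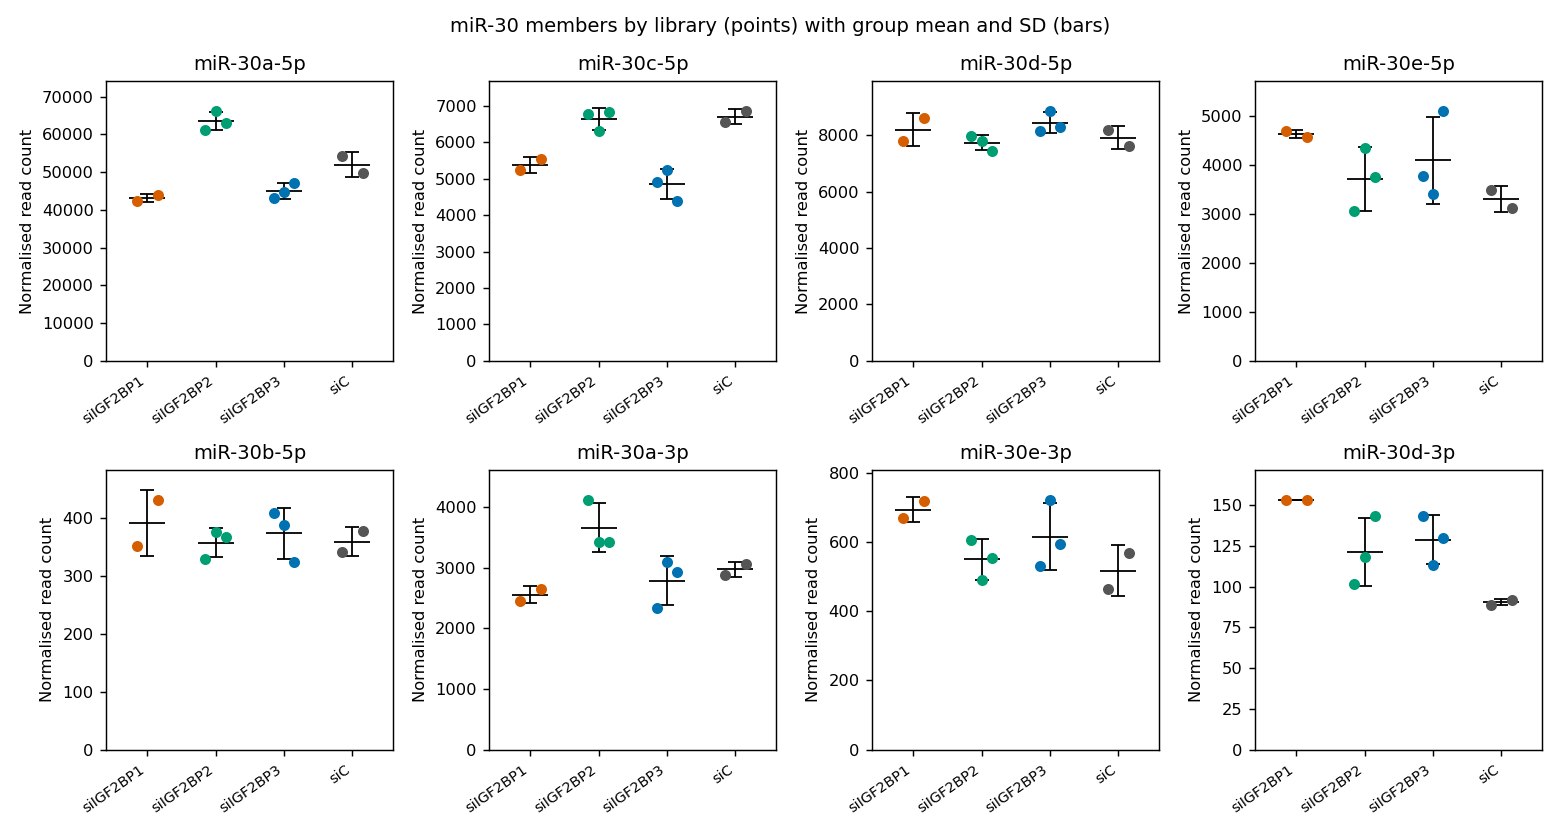
Normalised read counts (y axes, from 0) of the 8 miR-30 members for each group along the x axes, with a point per library and the group mean with its SD. The miR-30a-5p libraries of siIGF2BP2 lie between 61265 and 66175, above all other libraries, and the miR-30c-5p libraries of siIGF2BP1 and siIGF2BP3 lie between 4403 and 5542, below those of siIGF2BP2 and siC.

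Between the knockdowns of IGF2BP2 and IGF2BP3, miR-30a-5p and miR-30c-5p were higher in siIGF2BP2, and no other member passed the test. Normalised read counts of miR-30a-5p were 61265, 66175 and 63068 in siIGF2BP2, and 43140, 44713 and 47226 in siIGF2BP3. The lowest siIGF2BP2 library thus stood well above the highest siIGF2BP3 library, a log2 fold change of 0.50 ± 0.07 (SE; limma with Benjamini-Hochberg adjustment, adjusted p = 0.00213). For miR-30c-5p the values were 6787, 6299 and 6829 in siIGF2BP2, and 4913, 5230 and 4403 in siIGF2BP3. Here too the groups were separate, with a log2 fold change of 0.46 ± 0.09 (SE; limma, adjusted p = 0.0167).

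The passenger strand miR-30a-3p had 4121, 3427 and 3422 in siIGF2BP2, and 2339, 3093 and 2933 in siIGF2BP3. These groups did not overlap either, and the log2 fold change of 0.40 ± 0.12 (SE) was not called by limma (adjusted p = 0.117), whereas edgeR's quasi-likelihood test on recovered reads called it (0.44, adjusted p = 0.0356), as it called 7.76% of 335 microRNAs higher. Counts of miR-30d-5p were 7965, 7792 and 7430 in siIGF2BP2, and 8156, 8855 and 8294 in siIGF2BP3, separate in the opposite order. Its log2 fold change was -0.13 with a 95% interval of -0.30 to 0.05 (limma, adjusted p = 0.539). The log2 fold changes of miR-30e-5p (-0.13), miR-30e-3p (-0.16), miR-30b-5p (-0.06) and miR-30d-3p (-0.10) had intervals that included 0.

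With 2 of 8 members called, both higher, this comparison stands against 1.69% of 889 tested microRNAs called higher, 1.46% called lower and 3.15% called in either direction. Non-overlapping groups were seen for 3 members higher and 1 lower, against 7.31% and 7.99% of all tested microRNAs and 15.3% in either direction. The median log2 fold change was -0.08 over the members and 0.00 over all microRNAs tested. The call of miR-30c-5p ended without siIGF2BP2 replicate 1 (limma adjusted p = 0.0574) or replicate 3 (0.0660), and both calls ended after rescaling by upper quartile, with log2 fold changes of 0.38 and 0.34.

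**Figure D2:**
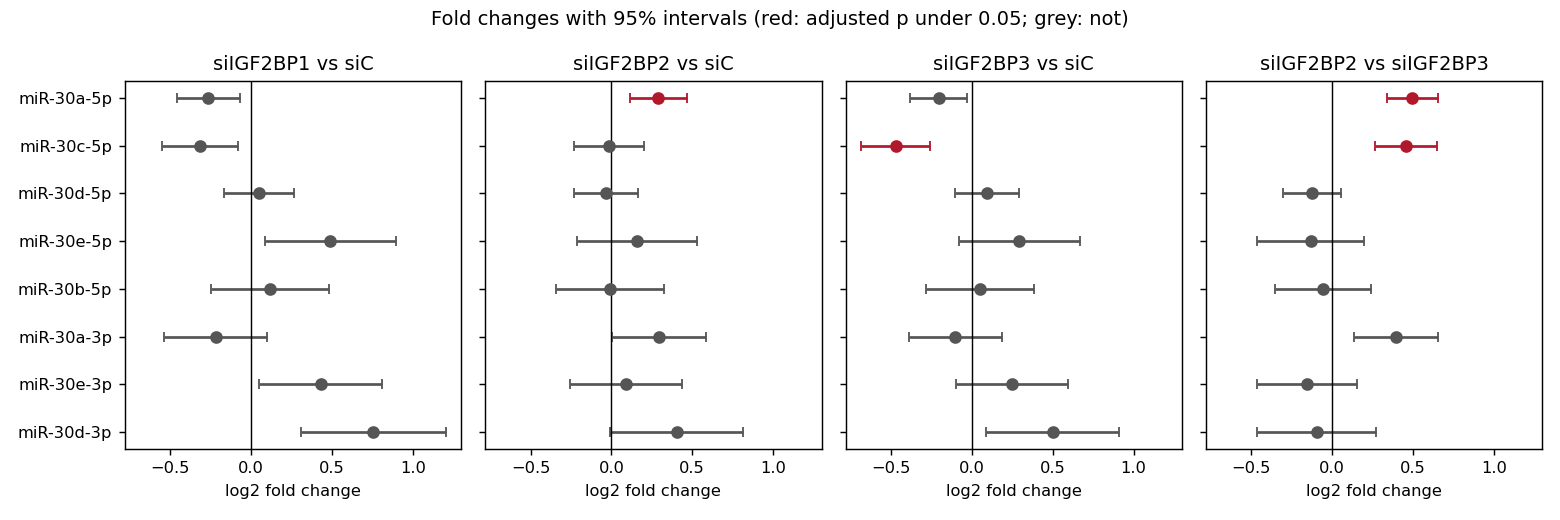
Log2 fold changes (x axes) of the 8 members (rows) in the 4 comparisons (panels), with 95% intervals from limma; red marks adjusted p under 0.05 over all 889 microRNAs. Called members are miR-30a-5p in siIGF2BP2 vs siC and in siIGF2BP2 vs siIGF2BP3, and miR-30c-5p in siIGF2BP3 vs siC and in siIGF2BP2 vs siIGF2BP3.

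In siIGF2BP1 against siC no member passed the limma test at the authors' scaling, while the family split: miR-30a-5p and miR-30c-5p stood lower and miR-30e-5p, miR-30e-3p and miR-30d-3p higher, each without overlap. Libraries held 42392 and 43986 of miR-30a-5p in siIGF2BP1, and 54269 and 49634 in siC (log2 fold change -0.27 ± 0.09, SE). Values of miR-30c-5p were 5234 and 5542 in siIGF2BP1, and 6555 and 6859 in siC (-0.32 ± 0.11, SE). The limma adjusted p-values were 0.154 and 0.164. Both passed after rescaling by TMM (adjusted p = 0.0226 and 0.0377) and in edgeR on recovered reads, where the log2 fold changes were -0.53 and -0.57 with adjusted p = 0.00443 and 0.00635.

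For miR-30e, both strands stood higher after IGF2BP1 depletion. The 5p strand had 4692 and 4571 in siIGF2BP1, and 3487 and 3114 in siC, a log2 fold change of 0.49 ± 0.19 (SE; limma, adjusted p = 0.214). The 3p strand had 668 and 718 in siIGF2BP1, and 465 and 568 in siC (0.43 ± 0.17, SE; limma, adjusted p = 0.262). Neither passed under any setting tried. The strand with the widest gap was miR-30d-3p, with 153 in each siIGF2BP1 library, and 89.1 and 91.8 in siC. Its log2 fold change of 0.76 ± 0.21 (SE) missed the threshold (limma, adjusted p = 0.0743). It passed when microRNAs with a mean under 10 were left out (limma, adjusted p = 0.0304), where 16.6% of the 313 tested were called.

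Its partner strand miR-30d-5p had 7780 and 8606 in siIGF2BP1, and 8194 and 7631 in siC. Counts of miR-30b-5p were 352 and 432 in siIGF2BP1, and 341 and 378 in siC. Groups of both microRNAs overlapped, and their small positive log2 fold changes (0.05 and 0.12) turned negative under TMM. The remaining member, miR-30a-3p, had 2453 and 2654 in siIGF2BP1, and 2885 and 3057 in siC, without overlap, at a log2 fold change of -0.22 (limma, adjusted p = 0.617).

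A count of 0 of 8 members stood against 2.47% of 889 microRNAs called in siIGF2BP1 vs siC, 2.14% higher and 0.337% lower. At an unadjusted p under 0.05 there were 3 members higher and 2 lower, against 13.7% of all tested. On recovered reads edgeR and DESeq2 each called 3 members lower, the arms of miR-30a and miR-30c-5p, against 7.46% of the 335 microRNAs edgeR tested and 7.62% of the 315 with an adjusted p in DESeq2. Groups did not overlap for 3 members higher and 3 lower, against 23.1% and 11.9% of all tested microRNAs and 35% in either direction. The median log2 fold change over all 889 was 0.10 at the authors' scaling and 0.00 after TMM, and over the members it was 0.08 and -0.12.

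In siIGF2BP2 against siC, miR-30a-5p rose and miR-30c-5p did not differ detectably. With siC at 54269 and 49634, the 3 siIGF2BP2 libraries given above lay higher for miR-30a-5p by a log2 fold change of 0.29 ± 0.08 (SE; limma, adjusted p = 0.0433). For miR-30c-5p the log2 fold change was -0.02, with a 95% interval of -0.23 to 0.20. Means of miR-30a-3p were 3657 ± 402 in siIGF2BP2 and 2971 ± 122 in siC (SD, n = 3 and 2; limma, adjusted p = 0.267). Counts of miR-30d-3p, at 102, 118 and 143 in siIGF2BP2, lay above both siC libraries (log2 fold change 0.40; limma, adjusted p = 0.284). The other 4 members had log2 fold changes between -0.03 and 0.16 and overlapping groups.

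One member of 8 was called in siIGF2BP2 vs siC, higher, where 1.24% of 889 microRNAs were called higher, 7.76% lower and 9% in either direction. Groups were separate for 3 members, all higher, against 10.7% of all tested microRNAs higher, 16.1% lower and 26.8% in either direction. The call of miR-30a-5p was at the edge of the threshold. It ended without siC C3 (limma adjusted p = 0.214), without siIGF2BP2 replicate 1 (0.0712), replicate 2 (0.143) or replicate 3 (0.119), without siIGF2BP3 replicate 2 (0.0587), and in edgeR (0.0651), at log2 fold changes between 0.23 and 0.32. It also ended under TMM, median-of-ratios and library-total scaling. For miR-30a-5p in siIGF2BP2 vs siC the authors' deposited table gives a false discovery rate of 0.364, at a log2 fold change of 0.29.

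In siIGF2BP3 against siC, miR-30c-5p fell. Against 6555 and 6859 in siC, its 3 siIGF2BP3 libraries held at most 5230, a log2 fold change of -0.47 ± 0.10 (SE; limma, adjusted p = 0.00649). The authors' deposited table gives false discovery rates of 0.0133 and 0.0153 for the rows of its genomic copies, at log2 fold changes of -0.47 and -0.46. For miR-30a-5p all 3 siIGF2BP3 libraries were below both siC libraries (log2 fold change -0.21 ± 0.08, SE), a difference that limma did not call (adjusted p = 0.160) and edgeR did (-0.32, adjusted p = 0.00974), together with 16.4% of 335 microRNAs called lower. The passenger strand miR-30d-3p held 144, 114 and 129.6 in siIGF2BP3, above both siC libraries (log2 fold change 0.50 ± 0.19, SE; limma, adjusted p = 0.135). The 5p strand of miR-30e varied within siIGF2BP3, at 3778, 3417 and 5106, and overlapped siC.

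Here 1 of 8 members was called, lower, while 8.66% of 889 microRNAs were called lower, 1.91% higher and 10.6% in either direction. Separate groups were found for 2 members lower and 1 higher, against 18.1% and 11.2% of all tested and 29.4% in either direction. Without siC C3 the fall of miR-30c-5p kept a log2 fold change of -0.44 and lost its call (limma adjusted p = 0.0650). Upper-quartile rescaling, which shifted the median log2 fold change over all 889 from 0 to 0.42, turned it to 0.13 and miR-30a-5p to 0.39. The comparisons of the knockdowns with siC share the same siC libraries, so their values for a member are not independent.

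The make-up of the 5p pool does not depend on library scaling. Of the miR-30 5p reads, miR-30a-5p made up 70.1% and 69.7% in siIGF2BP1, 77.2%, 77.9% and 77.4% in siIGF2BP2, 71.4%, 71.4% and 72.3% in siIGF2BP3, and 74.5% and 73.4% in siC. These 4 ranges did not touch. Shares of a pool sum to 100%, so those of the other members are bound to move against that of miR-30a-5p. The share of miR-30d-5p was 12.9% and 13.6% in siIGF2BP1, 10.0%, 9.17% and 9.12% in siIGF2BP2, 13.5%, 14.1% and 12.7% in siIGF2BP3, and 11.2% and 11.3% in siC. That of miR-30e-5p was 7.76% and 7.24% in siIGF2BP1, 3.85%, 5.11% and 4.61% in siIGF2BP2, 6.25%, 5.46% and 7.81% in siIGF2BP3, and 4.79% and 4.61% in siC. Both siIGF2BP1 and siIGF2BP3 thus had more miR-30d-5p and miR-30e-5p per family read than siC, while the normalised read count of miR-30d-5p itself overlapped siC in all 3 knockdowns.

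Per 100 reads of miR-30a-5p there were 11.1 and 10.4 reads of miR-30e-5p in siIGF2BP1, 4.98, 6.56 and 5.96 in siIGF2BP2, 8.76, 7.64 and 10.8 in siIGF2BP3, and 6.43 and 6.27 in siC. This pair differs by 1 base, and the ratio was above both siC libraries in every siIGF2BP1 and siIGF2BP3 library. No test was made, because this ratio was chosen after its values were seen. The denominator itself moved, so the same ratio was taken for the 312 other microRNAs with a mean of at least 10, the other members among them. In siIGF2BP1 it lay wholly above siC for 5 of the 7 other members and for 57.7% of the 312, and wholly below for 5.45%. In siIGF2BP2 it lay below siC for 3 members and for 38.1% of the 312, and above for 5.45%. In siIGF2BP3 it lay above siC for 4 members and 40.1%, and below for miR-30c-5p and 14.4%. Between siIGF2BP2 and siIGF2BP3 it was lower in siIGF2BP2 for 5 members and 50.3%, and higher for 2.56%. Separate ratios were thus common outside the family too. The share of the third 5p member, miR-30c-5p, was 8.66% and 8.78% in siIGF2BP1, 8.55%, 7.41% and 8.38% in siIGF2BP2, 8.14%, 8.35% and 6.74% in siIGF2BP3, and 8.998% and 10.1% in siC, below siC in all 3 knockdowns. Some gaps were within counting error: the interval of siC C2 (8.73% to 9.27%) overlapped those of siIGF2BP1 replicate 2 (8.57% to 8.99%) and siIGF2BP2 replicate 1 (8.32% to 8.78%). Per read of miR-30a-5p, miR-30c-5p overlapped siC in siIGF2BP1. The rare miR-30b-5p made up at most 0.684% of the pool.

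**Figure D3:**
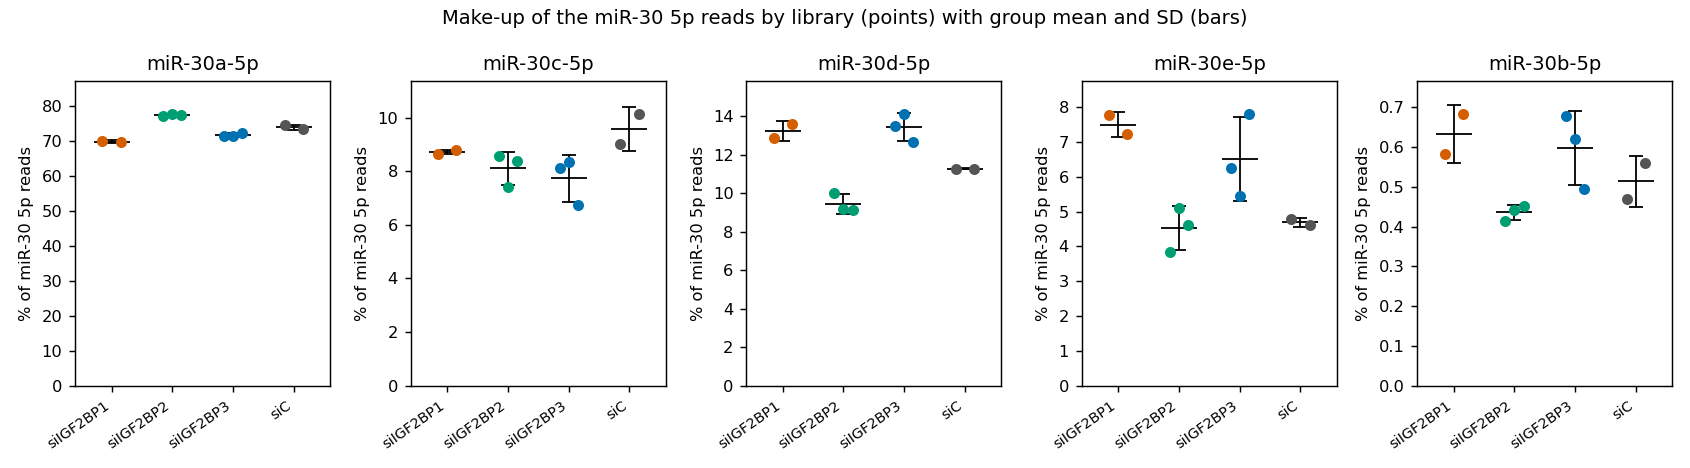
Percent of the miR-30 5p reads (y axes, from 0) that each 5p member took, for each group along the x axes, with a point per library and the group mean with its SD. The miR-30a-5p share lies between 69.7% and 70.1% in siIGF2BP1 and between 77.2% and 77.9% in siIGF2BP2, on either side of siC at 73.4% and 74.5%.

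Across libraries miR-30a-5p varied with its passenger strand and with miR-30c-5p. The Pearson correlation of miR-30a-5p over the 10 libraries was 0.83 with its passenger miR-30a-3p and 0.73 with miR-30c-5p. It was -0.30 with miR-30e-5p, -0.55 with miR-30d-5p and -0.36 with miR-30b-5p. These coefficients describe 10 libraries in 4 groups that share the authors' scaling.

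The copies of miR-30c-5p could not be separated: their rows split its reads almost evenly, with 48.9% to 50.9% in the first row in every library. The 3p strands of the same hairpins are no members and differ at 3 positions, so they are shown with their seeds in capitals as a locus-specific readout.
miR-30c-2-3p: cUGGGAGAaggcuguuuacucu
miR-30c-1-3p: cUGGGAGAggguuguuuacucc
Reads of miR-30c-2-3p, from the chromosome 6 locus of miR-30a, outnumbered those of miR-30c-1-3p, from the chromosome 1 locus of miR-30e, in every library. The ratio was 4.94 and 3.61 in siIGF2BP1, 5.29, 7.95 and 6.74 in siIGF2BP2, 4.38, 6.88 and 6 in siIGF2BP3, and 5.27 and 8.92 in siC. It was lower in both siIGF2BP1 libraries than in both siC libraries, and overlapped siC in the other knockdowns. With 20 to 76 reads of miR-30c-1-3p per library, it is an imprecise value. Neither strand passed the test in any of the 4 comparisons. The passenger miR-30b-3p had at most 9 reads in a library.

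Arm use differed widely between the 3 hairpins with both arms among the members, and none of them passed the test between conditions. The 3p arm made up 4.92% to 6.47% of both arms' reads for miR-30a, 1.08% to 1.93% for miR-30d and 10.1% to 17.4% for miR-30e, over the 10 libraries. Over the 64 hairpins whose arms both had a mean of at least 10, the median 3p share was 36.4%. For miR-30d the 3p arm took 1.93% and 1.75% in siIGF2BP1, 1.26%, 1.496% and 1.89% in siIGF2BP2, 1.73%, 1.27% and 1.54% in siIGF2BP3, and 1.08% and 1.19% in siC. All knockdown libraries lay above both siC libraries. The difference in log2 ratio of 3p over 5p was 0.71 ± 0.27 (SE) in siIGF2BP1 vs siC, which missed the threshold over the 64 pairs (limma, adjusted p = 0.197), and 0.44 and 0.41 in siIGF2BP2 and siIGF2BP3 vs siC (adjusted p = 0.636 and 0.465).

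For miR-30a and miR-30e the groups overlapped in every comparison, with differences between -0.10 and 0.10 (limma, adjusted p at least 0.882). The intervals were wide, for example -0.74 to 0.62 for miR-30e in siIGF2BP1 vs siC. No miR-30 pair was called in any comparison. Of the 64 pairs, 0% were called in siIGF2BP1 vs siC, 3.12% in siIGF2BP2 vs siC, 1.56% in siIGF2BP3 vs siC and 4.69% in siIGF2BP2 vs siIGF2BP3. Separate groups, as for miR-30d, were seen for 42.2%, 29.7% and 32.8% of pairs in the first 3 of these and for 20.3% in the last.

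**Figure D4:**
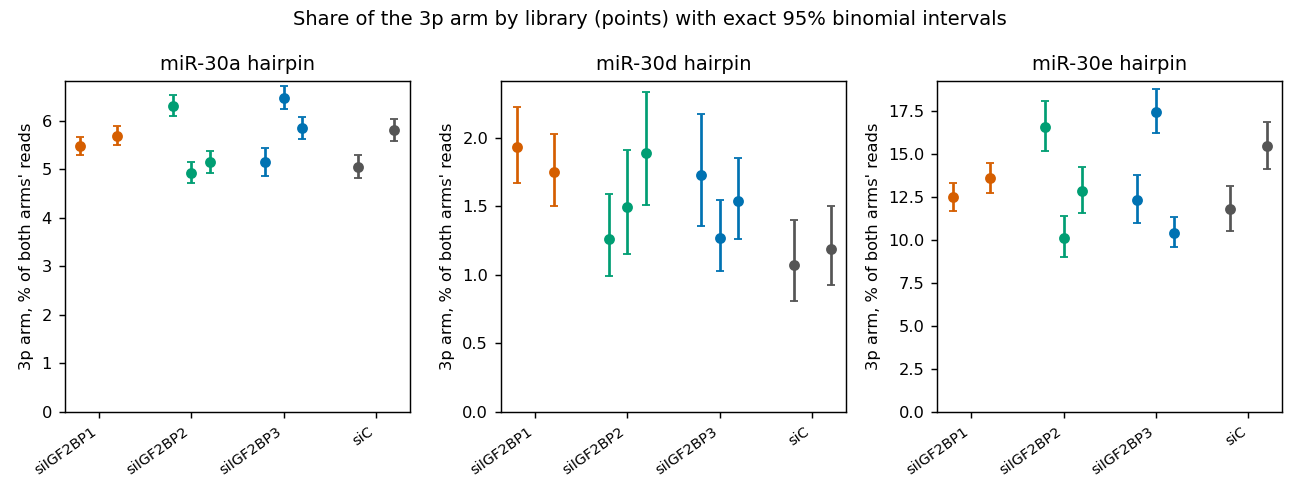
Share of the 3p arm (y axes, % of both arms' reads, from 0) in the miR-30a, miR-30d and miR-30e hairpins for each group along the x axes, with a point per library and its exact 95% binomial interval. For miR-30d both siC libraries, at 1.08% and 1.19%, lie below all others, with intervals that overlap some of them.

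Outside the family, the microRNAs whose pattern over the 10 libraries was most like the summed 5p level, among 140 with a mean of at least 100, were miR-186-5p (Pearson r = 0.83), miR-191-5p (0.82) and miR-146a-5p (0.76). Their means were 5629, 18178 and 976 in siIGF2BP2, the highest of the 4 groups for each. In siC they were 4356, 14470 and 419. Because these microRNAs were picked for following the summed 5p level, itself highest in siIGF2BP2, their high means there follow largely from the choice. The inflammation-induced miR-146a-5p fell in siIGF2BP3, at 210.3 ± 14.9 (SD, n = 3), below siC by a log2 fold change of -0.99 (limma, adjusted p = 0.000153), whereas miR-186-5p, at 4490 ± 342, stood near siC there. The siIGF2BP3 libraries of miR-191-5p, at 11626 to 13379, lay below siC at 14101 to 14838. Its log2 fold change of -0.22 was not called (limma, adjusted p = 0.184).

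Epithelial-state microRNAs, which like miR-30 are known for opposing mesenchymal change, were scarce, as given above. Of 10 in the table, 6 were tested, and none was called in siIGF2BP1 vs siC, siIGF2BP2 vs siC or siIGF2BP2 vs siIGF2BP3. In siIGF2BP3 vs siC 1 of the 6 was called lower, miR-34a-5p, which acts downstream of p53, against 8.66% of all 889 tested. The median log2 fold change of the 6 was 0.62 there, in the other direction. For miR-34a-5p there was no read in the 3 siIGF2BP3 libraries, and normalised read counts were 4.95 and 9.32 in siC (limma, adjusted p = 0.0197). With 1 read worth 1.65 in siC C2 and 1.33 in siC C3, this call rests on few reads. Source name also differs between these groups. The other highest of the list, miR-34c-5p and miR-141-3p, had means over all libraries of 4.35 and 2.16.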

How the data were processed

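Small RNA libraries were prepared from TRIZOL-extracted RNA, per the labels' protocols. Tools named in the submitters' processing notes are cutadapt (1.6), Bowtie2 (2.2.4), featureCounts (1.4.6) and edgeR, with the build hg19, while scaling and mismatch settings are not stated there. The deposited library columns hold a normalised signal per mature microRNA, scaled by the authors. All values (100%) were whole multiples of the worth of a read, within 0.01 reads, and edgeR on these recovered reads tested 335 microRNAs and called 42, 52, 64 and 40 in the comparisons of siIGF2BP1, siIGF2BP2 and siIGF2BP3 with siC and of siIGF2BP2 with siIGF2BP3. The authors' deposited log2 fold changes, p-values and false discovery rates were used only where that table is named.

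Rows of a mature microRNA were summed (218 rows were further genomic copies). limma 3.58.1 (R 4.3.3), with an intensity trend, was fitted to log2(value + 1) over all 4 groups for the 889 microRNAs reaching 1 in 2 or more libraries. P-values were adjusted by Benjamini-Hochberg over all of them, with calls at 0.05, and low microRNAs have understated fold changes on this scale. Arm ratios were fitted likewise over 64 hairpins. Replicate libraries were more different than counting noise alone would make them. Shares have exact Clopper-Pearson 95% intervals. Alternatives were pseudocounts, scalings, filters, fitted samples, edgeR 4.0.16 and DESeq2 1.42.0 on recovered reads, copies kept apart, a replicate block and each library left out. Named microRNAs were the members, the other miR-30 arms, the 3 most like the summed 5p level, and called or highest members of the lists. Members, lists and tests were chosen with earlier results of these data known. The limma, edgeR and arm-ratio fits were tested on simulated data, for siIGF2BP2 vs siIGF2BP3 only. The DESeq2 fit, the rescalings and the replicate block were not tested in this way.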

Additional observations from a re-analysis of the deposited data

How the results depend on the processing

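The number of members called depended on scaling and tool, and the cause was not tested. In siIGF2BP1 vs siC it was 0 as reported, 2 after TMM or median-of-ratios scaling, 1 with a mean of at least 10 required, and 3 in edgeR and in DESeq2. Of all microRNAs tested, 2.47% were called as reported, 2.81% and 3.15% after these scalings, and 16.6% with that mean. The shares were 12.5% in edgeR and 3.01% of 1196 in DESeq2. In siIGF2BP2 vs siC it was 1 as reported, 0 under TMM, median of ratios, library totals, no filter, edgeR, DESeq2 and a fit of the groups compared alone, and 7 under upper quartile. In siIGF2BP3 vs siC the number of members was 1 as reported, 2 under median of ratios, edgeR and DESeq2, and 6 under upper quartile. The shares of all microRNAs called were 10.6% as reported, 10.7%, 19.1% and 5.85% (of 1196) in the next 3, and 22.8% under upper quartile. In siIGF2BP2 vs siIGF2BP3 the number of members was 2 as reported, 3 in edgeR and DESeq2, which added miR-30a-3p, and 0 under upper quartile. The shares of all microRNAs called were 3.15% as reported, 11.9% in edgeR, 3.51% of 1196 in DESeq2 and 1.91% under upper quartile. Leaving out a library gave 0 to 0, 0 to 1, 0 to 1 and 1 to 2 members in the same order of comparisons. Arm pairs called were 0 throughout. Same-numbered siIGF2BP2 and siIGF2BP3 libraries did not deviate together (correlations of -0.121, -0.157 and -0.0368), so their numbers share nothing shown here, and the replicate block called 0 members, at unchanged log2 fold changes of 0.50 for miR-30a-5p and 0.46 for miR-30c-5p (limma adjusted p = 0.107 and 0.171). Upper quartile moved the median log2 fold change of all microRNAs to 0.30 in siIGF2BP2 and 0.42 in siIGF2BP3 vs siC. With only the highest genomic copy kept, the 5p share was 7.43% in siIGF2BP1, 10.2% in siIGF2BP2, 8.14% in siIGF2BP3 and 8.91% in siC. Small log2 fold changes turned round. In siIGF2BP1 vs siC, miR-30b-5p was -0.086, -0.12, -0.10, -0.14 and -0.11 under TMM, median of ratios, upper quartile, edgeR and DESeq2, and miR-30d-5p was -0.16, -0.18, -0.17, -0.21 and -0.18 there and -0.023 under library totals. In siIGF2BP2 vs siC, upper quartile gave 0.47, 0.47 and 0.45 for miR-30b-5p, miR-30c-5p and miR-30d-5p, and TMM gave -0.032 for miR-30e-3p. In siIGF2BP3 vs siC, upper quartile gave 0.39, 0.13 and 0.50 for miR-30a-5p, miR-30c-5p and miR-30a-3p. There miR-30b-5p was -0.032 under TMM, and -0.058, -0.058 and -0.059 under median of ratios, edgeR and DESeq2, where miR-30d-5p was -0.015, -0.019 and -0.017. Leaving out a library also turned uncalled values: in siIGF2BP1 vs siC miR-30b-5p ran from -0.030 to 0.27 and miR-30d-5p from -0.023 to 0.12. In siIGF2BP2 vs siC the ranges were -0.081 to 0.065 (miR-30b-5p), -0.048 to 0.022 (miR-30c-5p), -0.085 to 0.018 (miR-30d-5p) and -0.054 to 0.23 (miR-30e-3p). In siIGF2BP3 vs siC they were -0.024 to 0.15 (miR-30b-5p) and -0.18 to 0.020 (miR-30a-3p), and in siIGF2BP2 vs siIGF2BP3 -0.16 to 0.012 (miR-30b-5p), -0.26 to 0.034 (miR-30e-5p) and -0.22 to 0.021 (miR-30d-3p). Arm ratios ran from -0.060 to 0.15, -0.11 to 0.11 and -0.0014 to 0.21 for miR-30a and from -0.29 to 0.16, -0.29 to 0.16 and -0.29 to 0.18 for miR-30e in the comparisons of siIGF2BP1, siIGF2BP2 and siIGF2BP3 with siC. Between siIGF2BP2 and siIGF2BP3 they ran from -0.23 to 0.22 for miR-30e and from -0.13 to 0.17 for miR-30d. Depth limits miR-30d-3p, at 54 to 191 reads a library.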
